A study of Mus musculus with 8 samples.

Results

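The 29 genes described here mark the identity of GABAergic interneurons and of their subtypes, out of 39017 genes in the count table. They were listed by name from what is known of interneurons and not by any measured value. Earlier results of these data were known when the list was made. The genes were matched through the GENCODE vM21 symbol. All 29 symbols were found, in 30 rows, because Dlx6os1 names 2 Ensembl genes; its long antisense RNA was used, and the second, a short RNA of 146 bases with 0 to 4 counts per library, was left out. Of the 29, 7 are shared by GABAergic neurons, 13 mark CGE-derived and CCK-type cells and 9 mark MGE-derived cells. CGE and MGE are the caudal and medial ganglionic eminences, the embryonic regions where most cortical and hippocampal interneurons are born. The counts come from translating ribosome affinity purification (TRAP) of mouse hippocampus, in which a tagged ribosomal protein, L10-EGFP, lets the RNA bound to the ribosomes of chosen cells be pulled down. All mice of both groups carried CCK Cre and L10-EGFP. In 5 libraries, called conditional knockout (cKO), the mice were SMARCA3 fl/fl, and the 3 wild-type (WT) libraries are from littermates that were not. SMARCA3 is the chromatin remodeller encoded by Hltf. Each library pooled 4 hippocampi, and no strain, age or sex was given in the sources used here. Nothing says how the pools relate to each other, so the p-values measure the spread between these 8 pools. Cre under Cck also acts in any cell that expressed Cck earlier, so tagged ribosomes need not be limited to CCK interneurons.

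The DLX homeodomain factors, made in the ganglionic eminences, drive the GABAergic programme and the migration of young interneurons. Cells of the MGE then switch on Lhx6, Sox6, Satb1 and Maf and become parvalbumin or somatostatin interneurons. Cells of the CGE keep Prox1 and Nr2f2 and give rise to CCK basket cells, VIP cells and part of the neurogliaform cells. In the hippocampus CCK basket cells inhibit the cell bodies of pyramidal neurons and respond to cannabinoids and serotonin, but many pyramidal neurons also contain Cck mRNA.

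Total counts ran from 31760155 to 61823651 per library, and the 29 genes together took 0.0557% to 0.0752% of them. Hltf, the deleted gene, was at 13.7, 8.39 and 9.87 CPM in WT 1 to 3, at 5.10, 4.49, 4.21 and 2.83 CPM in cKO 1 to 4 and at 11.4 CPM in the library labelled cKO 5. That last library lay within the WT range and did not follow its label, so the fits below were also run without it. The log2 fold change of Hltf was -0.93 (95% interval -1.79 to -0.060, adjusted p 0.558) by edgeR, and -1.36 without that library. Transmitter genes of both kinds were present. Per length, in RPKM (reads scaled to the annotated exon length and to the TMM-scaled library total), the WT mean was 413 ± 85.9 for Cck, 63.8 ± 3.31 for the glutamate transporter gene Slc17a7 and 814 ± 30.3 for the pyramidal kinase gene Camk2a (SD, n = 3 for each). It was 14.7 ± 1.63 for Gad2 and 4.48 ± 1.33 for Gad1, which encode the enzymes that make GABA (SD, n = 3). The pull-down thus held RNA of glutamatergic neurons as well as of interneurons, and no RNA from before the pull-down was analysed here. Less RNA of a subtype gene in such bulk libraries cannot be told apart from fewer cells of that subtype.

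Promoter windows were found in RefSeq (GRCm38.p6, from 250 bases before to 50 after each start) for 24 of the 29 genes, in 38 windows. They were searched on both strands for TAATT, the core that DLX and other homeodomain proteins bind, so that the palindrome taatta counts as 2 overlapping matches. At least 1 match was present in 9 of the 38 windows (23.7%), against 27.0% of all 32851 windows of this length, and the listed genes thus hold these letters at a share no higher than promoters at large. The median window held 9 CpG dinucleotides, against 7 over all windows. Dlx6os1 and Krt73 had the windows with the most matches, 7 and 5. Windows with 7 or more matches made up 0.14% of all, and those with 5 or more 0.67%. Dlx6os1 (ENSMUSG00000090063, chromosome 6, 6820189 to 6871592, minus strand) is a noncoding RNA that runs antisense across Dlx6. Krt73 (chromosome 15, 101793308 to 101802346, minus strand) encodes a keratin and marks a part of the CCK basket cells. A second window of Dlx6os1, with 4 matches, is not shown. For the windows with 7 and 5 matches, the 250 bases upstream of the start are shown in full, with the matches in capitals. They read 5′ to 3′ on the gene's strand. They lie at chr6:6869534-6869783, where an exon of a longer Dlx6os1 transcript overlaps, and at chr15:101802361-101802610, outside annotated exons.
Dlx6os1: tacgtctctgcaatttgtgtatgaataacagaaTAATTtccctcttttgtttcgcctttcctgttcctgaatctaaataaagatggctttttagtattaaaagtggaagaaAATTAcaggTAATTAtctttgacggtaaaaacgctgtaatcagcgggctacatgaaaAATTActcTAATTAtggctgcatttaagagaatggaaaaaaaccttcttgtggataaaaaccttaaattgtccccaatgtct
Krt73: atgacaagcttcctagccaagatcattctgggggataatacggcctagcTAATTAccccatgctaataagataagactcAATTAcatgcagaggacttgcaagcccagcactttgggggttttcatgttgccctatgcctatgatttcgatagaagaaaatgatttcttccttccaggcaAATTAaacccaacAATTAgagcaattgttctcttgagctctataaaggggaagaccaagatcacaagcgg
The Dlx6os1 matches shown fall at 5 separate sites and those of Krt73 at 4. A match is only a run of letters, and binding was not measured.

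In the WT libraries the genes spanned more than 2 orders of magnitude per length. Prox1 (12.6 ± 8.07 RPKM) and Trpc5 (12.4 ± 3.32 RPKM), which encodes a cation channel, had the highest means, followed by Calb2 (10.4 ± 1.67 RPKM), which encodes calretinin, and Nos1 (8.86 ± 0.742 RPKM), the neuronal nitric oxide synthase gene (SD, n = 3 for each). The range of each of these 4 over the 3 libraries overlapped that of the next, so neighbours in this order were not separated. Cxcl14, a chemokine gene of CGE-derived cells, was at 5.89 ± 1.84 RPKM, Satb1 at 5.86 ± 0.457 RPKM and Nr2f2 at 4.87 ± 0.173 RPKM. Among genes that define 1 subtype, the parvalbumin gene Pvalb was at 1.17 ± 0.0872 RPKM and the MGE factor Lhx6 at 1.12 ± 0.563 RPKM, close to the CCK basket marker Krt73 at 1.47 ± 0.887 RPKM (SD, n = 3 for each). The ranges of these 3 genes overlapped. Sncg, a marker of CCK basket cells that encodes gamma-synuclein, was at 0.783 ± 0.205 RPKM. The peptide gene Sst, which marks MGE-derived somatostatin cells, was at 21.7 ± 4.31 RPKM, above 2.17 ± 0.632 RPKM for the CGE peptide gene Vip, and their ranges did not overlap. The lowest were Col19a1 (0.0989 ± 0.0326 RPKM), a collagen gene of CCK-type cells, Sox6 (0.0831 ± 0.0920 RPKM) and Chodl (0.0338 ± 0.0585 RPKM), the marker of long-range somatostatin and Nos1 cells, which had 0 counts in WT 1 and WT 2. Markers of both lineages were thus present in the pull-down of CCK Cre mice.

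**Figure D1:**
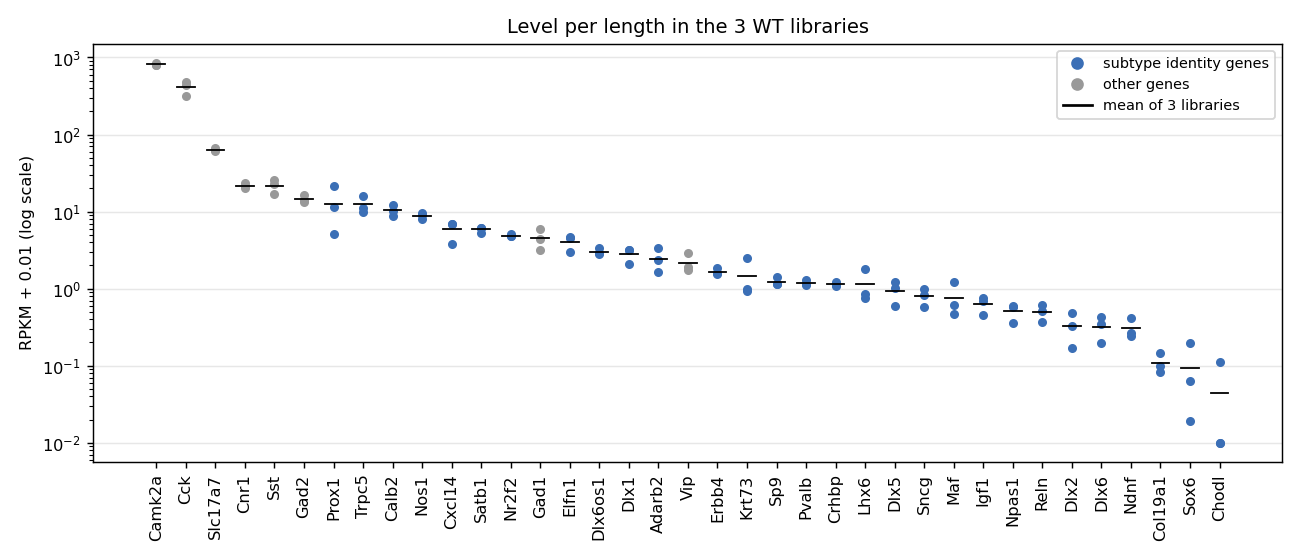
RPKM + 0.01 on a log axis for the 29 genes (blue) and 8 other genes (grey) in the 3 WT libraries, with the mean as a line. Camk2a and Cck lie highest, Prox1 (12.6) leads the subtype genes with the widest spread among those at the top, and Chodl is lowest.

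Setting cKO against WT asks which of these ribosome-bound RNAs differ when SMARCA3 is deleted in CCK cells. None of the 28 genes tested passed. The count at an adjusted p under 0.05 was 0 by edgeR's quasi-likelihood test (Benjamini-Hochberg over all 17654 genes tested), as it was over all genes (0%). It was also 0 by limma-voom and by DESeq2, which left 12 of the 28 without an adjusted p. Over all genes, limma-voom called 4, and DESeq2 called 108 of the 10801 that it gave an adjusted p. At an unadjusted edgeR p under 0.05 there was 1 gene, Nos1, or 3.57% of the 28, against 8.72% of all genes tested. Nos1 was also the single gene of the 29 whose groups of libraries did not overlap, while that held for 7.19% of all genes tested. Adjusted p-values ran from 0.558 to 0.993. The log2 fold changes ran from -0.60 for Crhbp to 1.04 for Npas1, with 19 above 0 and 9 below, and their median was 0.078 against 0.023 over all genes tested. By the exact permutation test of mean log2 CPM, two-sided over 56 arrangements, 0 of 29 had a p under 0.05. Chodl, at 0 to 31 counts, did not pass the filter on low counts.

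Without the library labelled cKO 5, 2 genes had an unadjusted edgeR p under 0.05, Nos1 and Crhbp, against 8.77% of all genes tested, and the lowest adjusted p was 0.490. The groups then did not overlap for 3 genes, Nos1, Calb2 and Crhbp, against 9.72% of all genes tested. The median log2 fold change of the list moved to 0.22, against 0.015 over all genes tested in that fit. This shift was not particular to that library, since the list median was also 0.22 with WT 3 left out instead. With any other library left out it was 0.044 to 0.083. How much the data could show differed between genes. The 95% interval lay within a 2-fold change in either direction for 14 of the 28, and within a 1.5-fold change for 5: Dlx1, Erbb4, Sp9, Nr2f2 and Satb1. For the other 14 the interval reached past 2-fold on at least 1 side, so a change of that size could lie within the error there.

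**Figure D2:**
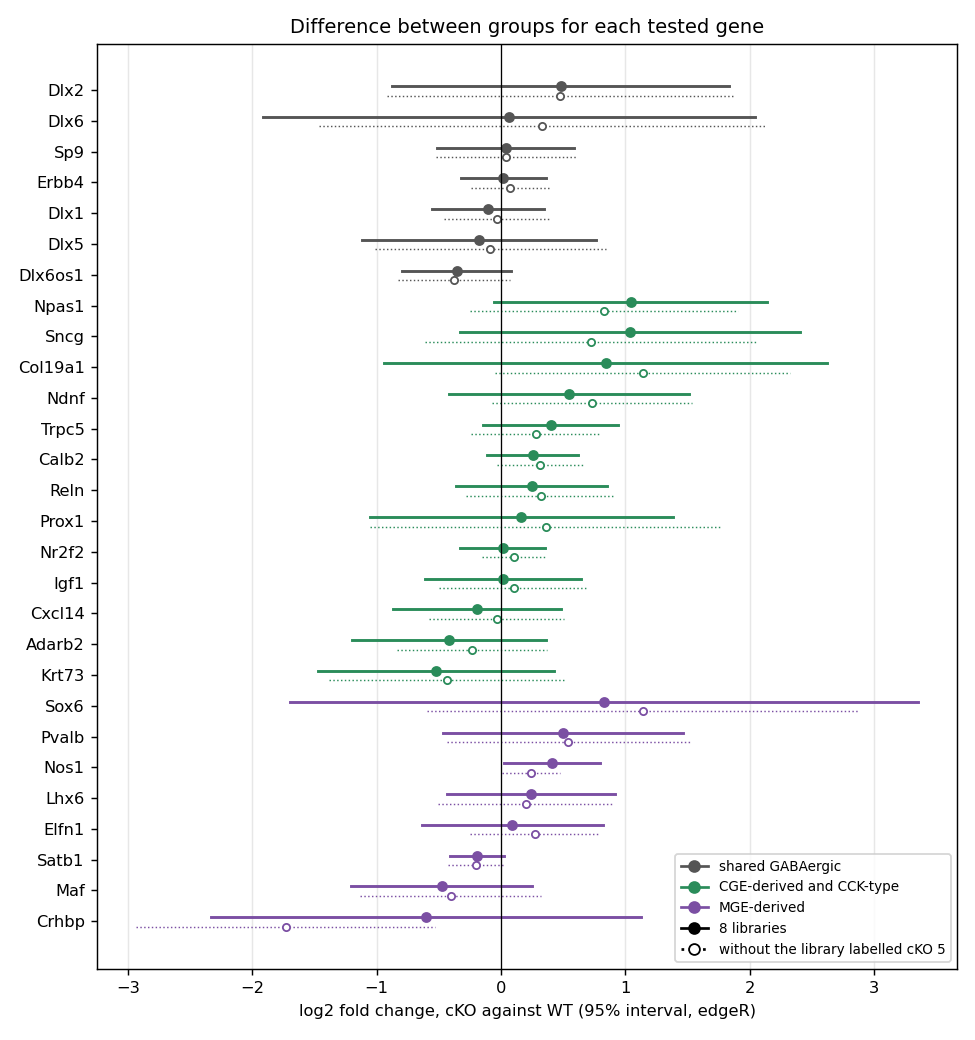
Fitted log2 fold change of cKO against WT with its 95% interval for the 28 genes tested, by subgroup; filled points use 8 libraries, open points leave out the library labelled cKO 5. With 8 libraries the interval of Nos1 (0.027 to 0.79) alone excludes 0; without that library so do those of Nos1 and Crhbp.

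Of the 7 genes shared by GABAergic neurons, 0 had an unadjusted p under 0.05, and their median log2 fold change was 0.017. Dlx1 (chromosome 2, 71528113 to 71533981), a homeodomain factor needed to maintain interneurons, was at 16.9, 11.2 and 17.2 CPM in WT 1 to 3, at 13.1, 16.2, 14.2 and 15.7 CPM in cKO 1 to 4 and at 10.9 CPM in the library labelled cKO 5. The groups overlapped almost fully, and the log2 fold change was -0.11 (95% interval -0.56 to 0.34, adjusted p 0.920) by edgeR. Erbb4, the neuregulin receptor of interneurons, was at 18.8, 19.6 and 22.6 CPM in WT 1 to 3, at 21.9, 19.9, 23.4 and 20.8 CPM in cKO 1 to 4 and at 16.9 CPM in the library labelled cKO 5. Its spread over the libraries was the smallest of the group, with a coefficient of variation of 10.3%, where counting alone gives 3.26%. The edgeR log2 fold change of Erbb4 was 0.017 (95% interval -0.32 to 0.36, adjusted p 0.985). Sp9, a zinc finger factor that acts with the DLX factors in young interneurons, was at 7.10, 5.66 and 5.73 CPM in WT 1 to 3, at 7.32, 5.75, 4.46 and 7.90 CPM in cKO 1 to 4 and at 6.14 CPM in the library labelled cKO 5. It too was spread evenly over the groups, with a log2 fold change of 0.037 (95% interval -0.51 to 0.58, adjusted p 0.981) by edgeR.

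Dlx6os1 was at 14.7, 17.4 and 14.7 CPM in WT 1 to 3, at 15.4, 11.5, 8.70 and 12.6 CPM in cKO 1 to 4 and at 12.8 CPM in the library labelled cKO 5. Of the 5 cKO libraries, 4 lay below all 3 WT libraries, and cKO 1 lay within the WT range. Mean CPM was 15.6 ± 1.54 over the WT libraries (SD, n = 3) and 12.2 ± 2.44 over the cKO libraries (SD, n = 5), the edgeR log2 fold change was -0.36 (95% interval -0.80 to 0.083, adjusted p 0.651), and the exact permutation p was 0.107. Its unadjusted p was 0.102 by edgeR and 0.0176 by limma-voom, where the adjusted p was 0.295. Dlx5 and Dlx6, the coding genes of the same cluster, encode DLX factors. Dlx5 was at 2.29, 2.71 and 1.34 CPM in WT 1 to 3, at 1.61, 2.78, 2.40 and 1.19 CPM in cKO 1 to 4 and at 1.36 CPM in the library labelled cKO 5. Dlx6 had 5 to 113 counts and lay at 0.798, 0.438 and 0.990 CPM in WT 1 to 3, at 0.249, 0.304, 0.748 and 2.44 CPM in cKO 1 to 4 and at 0.136 CPM in the library labelled cKO 5. The highest Dlx6 value, in cKO 4, was more than 3 times the next cKO value, and leaving out that library turned the log2 fold change from 0.064 to -1.05. Dlx2, which lies beside Dlx1, had 23 to 68 counts and was at 1.36, 0.458 and 0.907 CPM in WT 1 to 3, at 1.13, 0.384, 2.12 and 1.45 CPM in cKO 1 to 4 and at 1.25 CPM in the library labelled cKO 5, with overlapping groups. Exons of Dlx1 share 335 bases with the antisense gene Dlx1as, those of Dlx6 share 104 with Dlx6os2 and those of Sp9 share 270 with Cir1, each on the opposite strand. Those of Dlx6os1 share 180 with Gm27699 and 207 with Gm27905, also on the opposite strand. Cir1 had a mean of 4641.9 counts, against 143 to 382 counts per library for Sp9. The strand setting of the counting was not given in the sources used here, so reads from these pairs may not be separated.

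**Figure D3:**
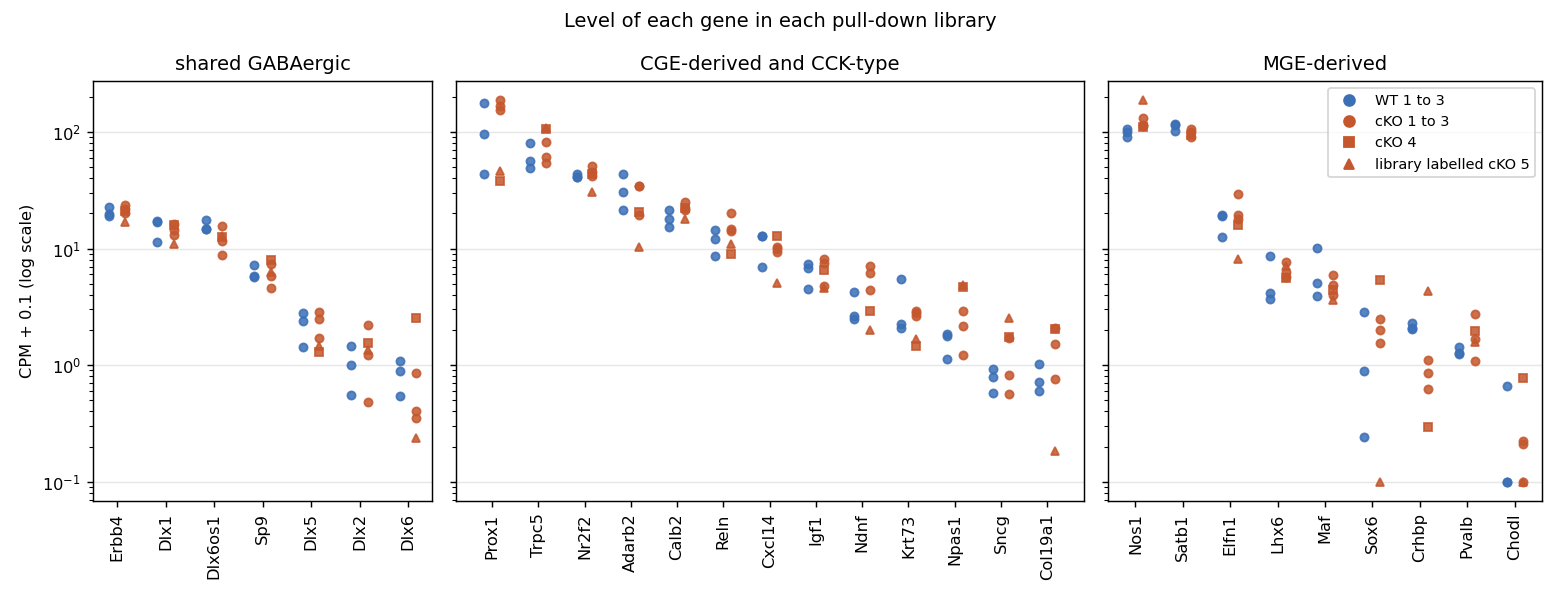
CPM + 0.1 on a log axis for all 29 genes in each of 8 libraries, in 3 panels by subgroup and ordered by mean level; blue is WT, orange is cKO, a square is cKO 4 and a triangle the library labelled cKO 5. WT and cKO points overlap for every gene but Nos1, and squares and triangles are the highest and lowest points for Dlx6, Sox6 and Crhbp.

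The 13 CGE-derived and CCK-type genes had a median log2 fold change of 0.25, with 10 above 0 and 3 below, and 0 had an unadjusted p under 0.05. Prox1 (chromosome 1, 190118035 to 190170714), a homeodomain factor that CGE-derived interneurons keep and that also marks dentate granule cells, had the widest range among the abundant genes. It was at 43.1, 97.0 and 178 CPM in WT 1 to 3, at 166, 187, 155 and 37.9 CPM in cKO 1 to 4 and at 46.5 CPM in the library labelled cKO 5. WT 1, cKO 4 and the library labelled cKO 5 were low and the other 5 libraries high, so both groups held both kinds. The edgeR log2 fold change was 0.16 (95% interval -1.06 to 1.38, adjusted p 0.962), and its interval was the widest among the listed genes with a mean above 20 CPM. The 5 markers of dentate granule cells, Dsp, C1ql2, Tdo2, Plk5 and Stxbp6, were summed in the same libraries. Their sum was 51.6, 121 and 237 CPM in WT 1 to 3, 197, 189, 157 and 30.3 CPM in cKO 1 to 4 and 43.5 CPM in the library labelled cKO 5. The same 3 libraries were lowest for the sum and for Prox1. Stxbp6 alone ran from 13.5 to 162 CPM, and of the 5 markers 0 had an unadjusted p under 0.05 between the groups. The part of granule cell RNA in the level of Prox1 was not tested. Exons of Prox1 share 133 bases with Prox1os on the opposite strand.

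**Figure D4:**
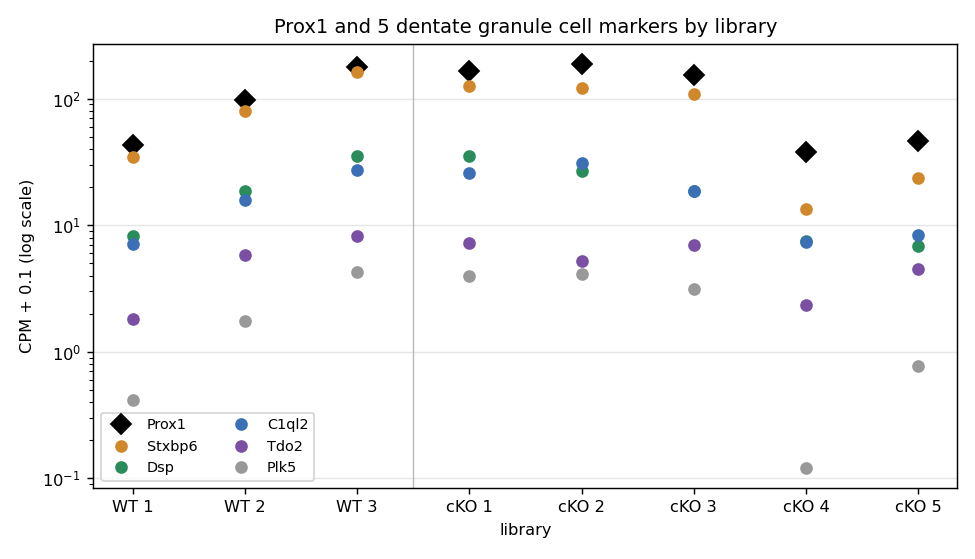
CPM + 0.1 on a log axis for Prox1 (black diamonds) and 5 dentate granule cell markers in each library; the grey line separates WT from cKO. Prox1 is at 43.1, 37.9 and 46.5 CPM in WT 1, cKO 4 and the library labelled cKO 5, where all 5 markers are also at their 3 lowest values, and between 97.0 and 187 CPM elsewhere.

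Nr2f2, the orphan receptor COUP-TFII of CGE-derived cells, showed no such split and was at 41.4, 40.9 and 43.7 CPM in WT 1 to 3, at 45.4, 50.6, 41.6 and 43.7 CPM in cKO 1 to 4 and at 30.7 CPM in the library labelled cKO 5. All libraries but the last fell between 40.9 and 50.6 CPM, and the edgeR log2 fold change was 0.013 (95% interval -0.33 to 0.35, adjusted p 0.988). Adarb2, an RNA-binding protein gene that marks the CGE lineage, was at 21.3, 30.5 and 43.7 CPM in WT 1 to 3, at 34.6, 19.4, 34.5 and 20.7 CPM in cKO 1 to 4 and at 10.3 CPM in the library labelled cKO 5. Its WT values already differed more than 2-fold, and the last library was the lowest of all 8. The log2 fold change of Adarb2 was -0.42 (95% interval -1.20 to 0.37, adjusted p 0.788) by edgeR, and -0.23 without that library. Calb2, whose calretinin also marks mossy cells of the dentate hilus, was at 15.3, 21.1 and 17.8 CPM in WT 1 to 3, at 21.3, 24.8, 22.2 and 22.0 CPM in cKO 1 to 4 and at 17.7 CPM in the library labelled cKO 5. Here cKO 1 to 4 lay above all 3 WT libraries and the library labelled cKO 5 lay among them. The edgeR log2 fold change of Calb2 was 0.25 (95% interval -0.11 to 0.62, adjusted p 0.7097) with 8 libraries. Without the last library it was 0.31, with an adjusted p of 0.618 and an unadjusted exact permutation p of 0.0286, the smallest that 7 libraries allow. The 3 mossy cell markers summed to 45.0 to 53.4 CPM in WT and 40.5 to 56.6 CPM in cKO. Nearly all of this was Ajap1, at 43.6 to 51.0 CPM in WT and 40.0 to 51.2 CPM in cKO. Drd2 was at 1.25 to 2.41 CPM in WT and 0.518 to 5.38 CPM in cKO. Its edgeR log2 fold change was 0.95 (95% interval -0.39 to 2.30, adjusted p 0.704), and Csf2rb2 had 0 to 43 counts.

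Among the markers of CCK basket cells, Sncg was at 0.479, 0.697 and 0.825 CPM in WT 1 to 3, at 0.460, 1.598, 0.717 and 1.64 CPM in cKO 1 to 4 and at 2.44 CPM in the library labelled cKO 5, from 18 to 100 counts. Values above 1.5 CPM came from cKO libraries only, but cKO 1 had the lowest value of all. The edgeR log2 fold change was 1.04 (95% interval -0.33 to 2.40, adjusted p 0.679). Col19a1, from 3 to 104 counts, was at 0.931, 0.618 and 0.495 CPM in WT 1 to 3, at 1.99, 1.42, 0.655 and 1.92 CPM in cKO 1 to 4 and at 0.0815 CPM in the library labelled cKO 5. Its highest and lowest values both lay in cKO, and the log2 fold change was 0.84 (95% interval -0.94 to 2.62, adjusted p 0.821) by edgeR. Krt73 was at 5.40, 1.99 and 2.14 CPM in WT 1 to 3, at 2.53, 2.70, 2.84 and 1.36 CPM in cKO 1 to 4 and at 1.58 CPM in the library labelled cKO 5. WT 1 stood above the other 7 libraries, and without it the fitted log2 fold change went from -0.53 to 0.089. Cxcl14 was at 12.7, 6.87 and 12.8 CPM in WT 1 to 3, at 9.21, 9.89, 10.2 and 12.8 CPM in cKO 1 to 4 and at 4.97 CPM in the library labelled cKO 5, with overlapping groups. Trpc5, which pyramidal neurons express too, was at 81.0, 56.1 and 49.4 CPM in WT 1 to 3, at 61.5, 81.2, 53.8 and 106 CPM in cKO 1 to 4 and at 107 CPM in the library labelled cKO 5. The highest values of Trpc5 were those of cKO 4 and the library labelled cKO 5, which also had the highest sums of 7 pyramidal neuron markers, 9537 and 11823 CPM against 7321 to 8387 CPM in the other 6. Most of each sum was Camk2a, at 7948 CPM in cKO 4 and 10057 CPM in the library labelled cKO 5. The edgeR log2 fold change of Trpc5 was 0.40 (95% interval -0.14 to 0.94, adjusted p 0.690), and the part of pyramidal RNA in it was not tested.

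Npas1, a bHLH-PAS factor found mainly in CGE-derived cells, had the highest fold change of the list. It was at 1.75, 1.04 and 1.69 CPM in WT 1 to 3, at 1.13, 2.06, 2.84 and 4.58 CPM in cKO 1 to 4 and at 4.78 CPM in the library labelled cKO 5. The 4 highest values were cKO libraries and led by cKO 4 and the last, while cKO 1 lay within the WT range. The log2 fold change was 1.04 (95% interval -0.057 to 2.14, adjusted p 0.581) by edgeR, with an unadjusted p of 0.0611, and 0.82 without the library labelled cKO 5. Reln, the secreted glycoprotein reelin, was at 14.3, 8.51 and 12.02 CPM in WT 1 to 3, at 14.1, 20.1, 14.7 and 8.96 CPM in cKO 1 to 4 and at 10.8 CPM in the library labelled cKO 5. The highest value was that of cKO 2, and WT 2 and cKO 4 were the lowest. Reelin is also made by Cajal-Retzius cells, and 5 markers of those cells summed to 3.15 to 5.53 CPM in WT and 0.734 to 7.45 CPM in cKO, with Lhx1 and Lhx5 at 0 counts in all WT libraries. Ndnf, a marker of neurogliaform cells, was at 2.55, 2.37 and 4.14 CPM in WT 1 to 3, at 7.03, 4.32, 6.02 and 2.83 CPM in cKO 1 to 4 and at 1.90 CPM in the library labelled cKO 5. For Ndnf cKO 1 to 3 lay above all WT libraries, while cKO 4 and the last did not, and the edgeR log2 fold change was 0.55 (95% interval -0.42 to 1.51, adjusted p 0.770). Igf1, a growth factor made by several interneuron types and by microglia, was at 6.75, 4.38 and 7.34 CPM in WT 1 to 3, at 8.01, 4.70, 7.45 and 6.39 CPM in cKO 1 to 4 and at 4.51 CPM in the library labelled cKO 5. Its groups overlapped over most of their range, with a log2 fold change of 0.013 (95% interval -0.61 to 0.64, adjusted p 0.993) by edgeR.

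Of the 9 MGE-derived genes, 8 were tested, with a median log2 fold change of 0.17, 5 above 0 and 3 below. Nos1 (chromosome 5, 117781032 to 117958840), which makes nitric oxide in MGE-derived and other neurons, had the smallest p of the list. It was at 100.5, 89.8 and 106 CPM in WT 1 to 3, at 114, 131, 113 and 110.1 CPM in cKO 1 to 4 and at 188 CPM in the library labelled cKO 5. All 5 cKO libraries lay above all 3 WT libraries, and the last one stood far above the rest. Mean CPM was 98.8 ± 8.28 over the WT libraries (SD, n = 3) and 131 ± 32.7 over the cKO libraries (SD, n = 5). The log2 fold change was 0.41 (SE 0.17, 95% interval 0.027 to 0.79), with an unadjusted p of 0.0381 and an adjusted p of 0.558 by edgeR, so it did not pass. The exact permutation p was 0.0893. Leaving out the library labelled cKO 5, Nos1 had a log2 fold change of 0.24 (95% interval 0.0052 to 0.48), a smaller value, with an adjusted edgeR p of 0.563 and an exact p of 0.0286. Exons of Nos1 share 268 bases with the antisense gene Gm26995, which had a mean of 90.4 counts. The pyramidal marker sum was likewise higher in all cKO libraries, 7321 to 7803 CPM in WT and 7826 to 11823 CPM in cKO. Most of it was Camk2a, at 5930 to 6336 CPM in WT and 6440 to 10057 CPM in cKO. Of the 7 genes 2, Slc17a7 and Camk2a, were higher and 0 lower at an unadjusted edgeR p under 0.05. The median log2 fold change of the 7 was -0.080, with Neurod2, Neurod6, Tbr1 and Emx1 below 0. Slc17a7 had a log2 fold change of 0.49 (95% interval 0.28 to 0.70, adjusted p 0.470) by edgeR, with an adjusted p of 0.00604 by DESeq2. The part of pyramidal RNA in the level of Nos1 was not tested.

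Crhbp, the secreted binding protein of corticotropin-releasing hormone found in somatostatin cells, was at 1.97, 2.19 and 1.94 CPM in WT 1 to 3, at 0.747, 0.527, 0.998 and 0.194 CPM in cKO 1 to 4 and at 4.26 CPM in the library labelled cKO 5. The WT libraries lay close together, cKO 1 to 4 lay below all of them and the library labelled cKO 5 lay above all of them. The counts behind these values were 74, 110 and 94 in WT, 39, 33, 32 and 9 in cKO 1 to 4 and 157 in the last. With 8 libraries the log2 fold change was -0.60 (SE 0.79, 95% interval -2.33 to 1.12), with an adjusted p of 0.879 by edgeR. Without the last library it was -1.73 (95% interval -2.93 to -0.53), with an unadjusted p of 0.00884, an adjusted edgeR p of 0.490 and an exact permutation p of 0.0571. With all 8 libraries, limma-voom with quality weights gave -1.48 (95% interval -2.51 to -0.45, unadjusted p 0.00840, adjusted p 0.236). The difference did not pass in any of these fits, and its size moved with both the library and the method. Sst and Npy, peptide genes also found in somatostatin cells, did not show this arrangement, but both were added after their values were seen. Sst was at 18.5, 12.3 and 16.2 CPM in WT 1 to 3, at 22.6, 35.9, 19.9 and 5.20 CPM in cKO 1 to 4 and at 5.24 CPM in the library labelled cKO 5, and Npy ran from 3.75 to 6.44 CPM.

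**Figure D5:**
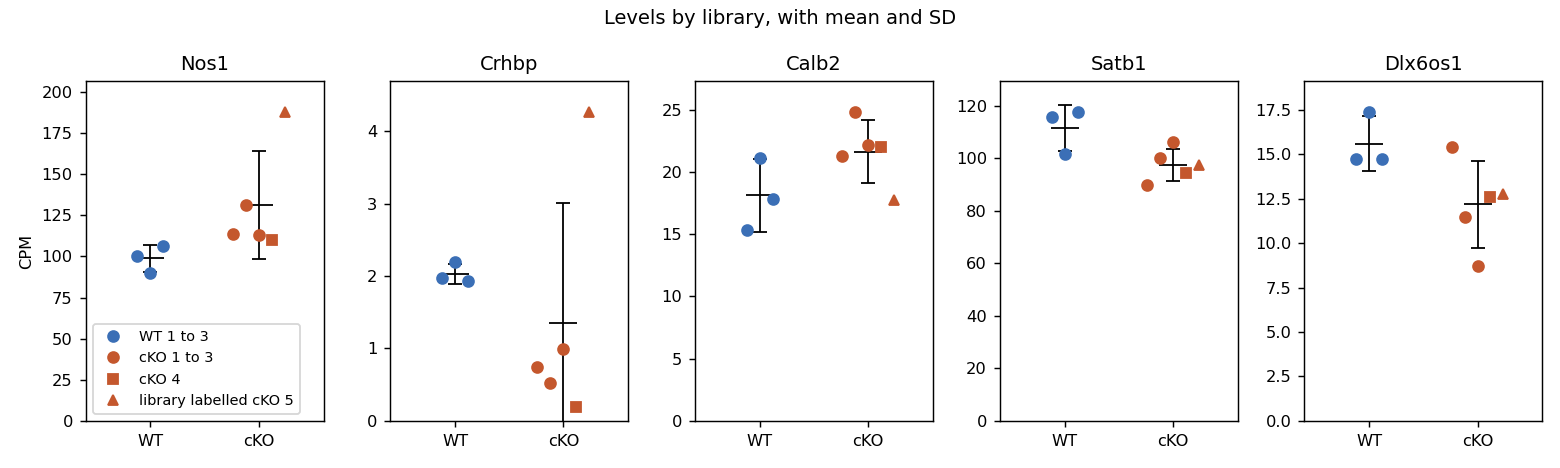
CPM in each library for Nos1, Crhbp, Calb2, Satb1 and Dlx6os1, each on its own axis from 0, with the mean and SD of 3 WT and 5 cKO libraries (the lower SD bar of Crhbp in cKO is cut at 0). Nos1 separates the groups, and the library labelled cKO 5 (triangle) lies above the other cKO libraries for Nos1 and Crhbp and below them for Calb2.

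Satb1 (chromosome 17, 51736187 to 51833290), a chromatin organiser needed for the maturation of MGE-derived cells and abundant in other forebrain neurons, was the steadiest gene of the list. It was at 116, 102 and 118 CPM in WT 1 to 3, at 89.8, 99.9, 106 and 94.4 CPM in cKO 1 to 4 and at 97.5 CPM in the library labelled cKO 5. Of the cKO libraries, 4 lay below all WT libraries and cKO 3 did not. Mean CPM was 112 ± 8.70 over the WT libraries (SD, n = 3) and 97.5 ± 6.05 over the cKO libraries (SD, n = 5), the log2 fold change was -0.19 (95% interval -0.41 to 0.022, adjusted p 0.611) by edgeR and the exact permutation p was 0.0536. Maf, which acts with Lhx6 in the MGE lineage and is also made by microglia, was at 9.92, 4.98 and 3.81 CPM in WT 1 to 3, at 5.78, 4.79, 3.93 and 4.32 CPM in cKO 1 to 4 and at 3.50 CPM in the library labelled cKO 5. WT 1 was the highest of all, and without it the log2 fold change went from -0.48 to 0.024. The 6 microglia markers summed to 9.39 to 15.996 CPM in WT and 7.82 to 13.7 CPM in cKO, and C1qa was at 0 counts in 7 of 8 libraries. Lhx6, which specifies the MGE lineage, was at 3.62, 4.08 and 8.51 CPM in WT 1 to 3, at 7.59, 6.25, 5.64 and 5.46 CPM in cKO 1 to 4 and at 7.01 CPM in the library labelled cKO 5. The cKO values of Lhx6 all lay inside the WT range, and the log2 fold change was 0.24 (95% interval -0.44 to 0.92, adjusted p 0.876) by edgeR.

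Elfn1, a postsynaptic adhesion protein of somatostatin cells, was at 12.5, 19.0 and 19.3 CPM in WT 1 to 3, at 17.8, 29.1, 19.2 and 15.9 CPM in cKO 1 to 4 and at 7.99 CPM in the library labelled cKO 5. Its highest and lowest values were both in cKO, and the log2 fold change was 0.091 (95% interval -0.64 to 0.82, adjusted p 0.967) by edgeR. Pvalb, which marks fast-spiking basket cells, had 44 to 165 counts and was at 1.17, 1.16 and 1.32 CPM in WT 1 to 3, at 0.977, 2.64, 1.59 and 1.88 CPM in cKO 1 to 4 and at 1.49 CPM in the library labelled cKO 5. The WT values were close together and 4 of 5 cKO libraries lay above them, with a log2 fold change of 0.50 (95% interval -0.47 to 1.46, adjusted p 0.798) by edgeR. Sox6, a factor downstream of Lhx6, was at 0.798, 0.139 and 2.76 CPM in WT 1 to 3, at 2.39, 1.44, 1.90 and 5.23 CPM in cKO 1 to 4 and at 0 CPM in the library labelled cKO 5. It had 0 counts in the last library and 242 in cKO 4, and its interval was the widest of the 28, -1.70 to 3.35. Chodl was at 0, 0 and 0.557 CPM in WT 1 to 3, at 0, 0.112, 0.125 and 0.669 CPM in cKO 1 to 4 and at 0 CPM in the library labelled cKO 5, where a count of 0 allows up to 3 counts. The counting error of these low genes is smaller than their spread between pools. For Sox6 the coefficient of variation over 8 libraries was 92.6%, where counting alone gives 10.8%, and for Crhbp the values were 81.4% and 12.1%.

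Beyond the 29, a list of 28 other interneuron genes was measured. Of the 25 tested, 0 passed at an adjusted p under 0.05 by edgeR, limma-voom or DESeq2, which left 8 of the 25 without an adjusted p. At an unadjusted edgeR p under 0.05 there were 2 (8%, against 8.72% of all genes tested), of which Id2 is described. The median log2 fold change of the 25 was -0.031, with 12 above 0 and 13 below. Id2, an inhibitor of bHLH factors that marks neurogliaform cells, was at 42.3, 35.6 and 37.2 CPM in WT 1 to 3, at 29.9, 34.4, 27.7 and 22.5 CPM in cKO 1 to 4 and at 26.7 CPM in the library labelled cKO 5. All cKO libraries lay below all WT libraries, with a log2 fold change of -0.44 (95% interval -0.77 to -0.11, adjusted p 0.499) by edgeR and an exact permutation p of 0.0357. Of the transmitter genes, Gad2 had a log2 fold change of -0.33 (95% interval -0.73 to 0.073, adjusted p 0.650) by edgeR. Gad1 and Slc32a1, the vesicular GABA transporter gene, were at 0.044 and 0.12. Kcnc1, a potassium channel gene of fast-spiking cells, and Kit, a receptor of CGE-derived cells, were at 0.21 and 0.27, both with an adjusted p of 0.660 by edgeR. The level of Gad1 was 21.7 CPM in cKO 4 and 15.3 CPM in the library labelled cKO 5, against 24.5 to 50.2 CPM in the other 6.

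As a description of each library, the log2 CPM of every gene was set against its WT mean and the median was taken over genes with a mean of at least 1 CPM. The WT libraries are part of that WT mean and the cKO libraries are not, so a ranking across both groups is uneven. Over 27 of the 29 genes this median was 0.054, -0.12 and 0.12 in WT 1 to 3, 0.11, 0.32, 0.17 and 0.082 in cKO 1 to 4 and -0.29 in the library labelled cKO 5. That library was the lowest of the 8, and cKO 2 the highest. For the 13 CGE-derived and CCK-type genes it was -0.45 there, and for 23 other interneuron genes -0.52, while for the 8 MGE-derived genes it was 0.050. Of the marker sums of other cells, those of oligodendrocytes and their precursors separated the groups, like that of pyramidal neurons above. The sum of 6 oligodendrocyte markers was 67.8 to 70.8 CPM in WT and 78.5 to 103 CPM in cKO, and that of 4 precursor markers was 2.53 to 3.96 CPM in WT and 4.68 to 8.42 CPM in cKO, higher in all cKO libraries in both cases, with 2 of 6 and 1 of 4 genes at an unadjusted edgeR p under 0.05. The precursor sum leaned on Cspg4, whose own groups overlapped, at 1.53 to 2.80 CPM in WT and 2.21 to 7.96 CPM in cKO. In the library labelled cKO 5 Cspg4 made up 7.96 of the 8.42 CPM. Pdgfra, Olig1 and Olig2 had 2, 15 and 0 counts there, and Olig2 had 0 to 79 counts over all libraries. Sums of 6 astrocyte markers (17.2 to 29.9 CPM in WT and 20.6 to 28.8 CPM in cKO), 4 endothelial markers (1.07 to 1.14 CPM in WT and 0.527 to 2.83 CPM in cKO) and 5 striatal neuron markers (34.96 to 47.7 CPM in WT and 27.5 to 62.1 CPM in cKO) overlapped. Of the 6 astrocyte markers 1, Aldh1l1, was higher at an unadjusted edgeR p under 0.05, and their median log2 fold change was 0.72. Aldh1l1 rested on 0 to 4 counts in WT and 2 to 33 in cKO. Gfap, Gja1 and Slc1a3 were also above 0. Most of the astrocyte sum was Aldoc, with a log2 fold change of -0.052, and Aqp4 was at -0.22. The 4 choroid plexus markers summed to 27.5 to 38.3 CPM in WT and 25.5 to 76.5 CPM in cKO, highest in the library labelled cKO 5, and the median log2 difference of cKO from WT over the 3 tested was 1.05. The endothelial marker Cldn5 was at 0 counts in 7 of 8 libraries. The part of these cells in the results above was not tested.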

How the data were processed

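RNA from TRAP pull-downs of mouse hippocampus was sequenced in 8 libraries, 3 WT and 5 cKO. The deposited table holds raw counts per Ensembl gene; per the submitters' processing notes the authors aligned reads with STAR 2.5.3a to mm10 and counted with HTSeq. The annotation release, strand setting and filters are not given in the sources used here. Symbols matched for 37607 of 39017 genes, and exon lengths came from GENCODE vM21, on the same assembly.

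Counts were tested in R 4.3.3 with edgeR 4.0.16 (TMM scaling, filterByExpr, robust quasi-likelihood fit, two-sided), with Benjamini-Hochberg adjustment over 17654 genes. CPM and RPKM were computed here from TMM-scaled totals. The edgeR fit was run on counts simulated from the fitted mean, spread and library totals, and the outcome is not given here. Those counts were drawn independently for each gene and library. They held no library that departs from its label and no shift shared by the genes of a cell type. Single genes were also compared by exact permutation of mean log2 CPM (prior count 2): 8 libraries allow a p of at least 0.0179, and 7 libraries 0.0286. Alternatives were RLE scaling, other filters, DESeq2 1.42.0, limma-voom (limma 3.58.1) with quality weights, each library left out, and 6 libraries with and without the replicate block. Totals of 31760155 to 61823651 counts keep counting error below the spread between pools for each of the 29 genes.

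The genes and lists were chosen with earlier results of these data known. All 29 genes are named, with values in every library for those with a mean of at least 1 CPM or an unadjusted p under 0.05; of the other interneuron genes, the 6 with the smallest p and 4 transmitter genes were to be named, of which some are not reported here; Sst, Npy and Vip were added after their values were seen. Reads shared between overlapping genes cannot be reassigned. Figures used Python 3.11.15 and matplotlib 3.10.9.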

Additional observations from a re-analysis of the deposited data

Results flagged for a closer look

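Among the 5 cKO libraries, the highest or lowest value stood far from the other 4 for 4 genes, by Dixon's 95% critical value of 0.71. In all, 34 such groups were examined (29 genes and 5 list medians). Chance alone would flag about 1.70 if the groups were normally distributed and independent. The raw CPM were not shown to be normal, and the list medians share genes, so that number is only a guide. Nos1 in the library labelled cKO 5 was at 188 CPM, against 110.1 to 131 CPM in the remaining cKO libraries, and the gap to the nearest of them was 0.727 of the range. Crhbp in the same library was at 4.26 CPM, against 0.194 to 0.998 CPM in the remaining cKO libraries, and the gap to the nearest of them was 0.803 of the range. Dlx6 in cKO 4 was at 2.44 CPM, against 0.136 to 0.748 CPM in the remaining cKO libraries, and the gap to the nearest of them was 0.734 of the range, and Chodl in cKO 4 was at 0.669 CPM, against 0 to 0.125 CPM in the remaining cKO libraries, and the gap to the nearest of them was 0.814 of the range. Dlx6 and Chodl rest on 113 and 31 counts there.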

How the results depend on the processing

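The count of listed genes at an adjusted p under 0.05 was 0 under every alternative run, and over single genes the lowest adjusted p was 0.236, for Crhbp in limma-voom. Over all genes, calls numbered 0 by edgeR with 8 libraries, 10 over the 6 libraries numbered 1 to 3, 0 there with the replicate block, 108 by DESeq2, 4 by limma-voom, and 2 each with no filter, with 1 CPM required in 3 libraries, and at an adjusted p under 0.1. Listed genes at an unadjusted p under 0.05 numbered 1 by edgeR with 8 libraries, 3 over the 6 libraries, 2 there with the replicate block, 2 by DESeq2, 3 by limma-voom and 0 to 3 with each library left out (0 without cKO 2, 3 without cKO 1, 2 without cKO 3 or the library labelled cKO 5). Genes with an exact permutation p under 0.05 numbered 0, and 0 to 2 with a library left out. Across genes, the deviations of same-numbered WT and cKO libraries from their groups correlated at -0.00925, 0.00912 and -0.0463, so the numbers were not taken to pair the pools. Of 419 comparisons of single genes, 386 had the same direction and did not cross the threshold, and 33 reversed direction, in 11 genes that did not pass in any fit. The cause of the reversals was not tested. With limma-voom the log2 fold change was 0.0017 for Dlx1, 0.072 for Dlx5, -0.52 for Dlx6 and -0.063 for Sp9. Over the 6 libraries without and with the block it was 0.096 and 0.11 for Dlx5, -0.80 and -0.86 for Dlx6, and -0.080 and -0.10 for Sp9. With each library left out it ran from -0.42 to 0.044 for Dlx5, -1.05 to 0.33 for Dlx6, -0.037 to 0.10 for Erbb4, -0.056 to 0.15 for Sp9, -0.77 to 0.089 for Krt73, -0.18 to 0.16 for Igf1, -0.21 to 0.76 for Prox1, -0.054 to 0.10 for Nr2f2, -0.73 to 0.024 for Maf and -0.15 to 0.27 for Elfn1.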
